A study of Mus musculus with 4 samples.

Results

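The immediate early genes described here are Fos, Fosb, Junb, Egr1, Egr2, Egr3, Egr4, Arc, Npas4 and Nr4a1. They were found by gene name among the 29224 genes of the count table. All 10 were found in 1 row each, and all 10 passed the filter on low counts, which left 16793 genes for testing. RNA was sequenced from cells of the P5 mouse cerebral cortex that the study isolated as astrocytes. It used magnetic beads carrying an antibody to GLAST (ACSA-1), a glutamate transporter of the astrocyte surface. Transcripts of neurons were nevertheless abundant in all libraries, and markers of several cell types differed between the groups, as described below. The control group, Ezh2 f/f, has 2 libraries from mice whose Ezh2 alleles are floxed and intact. The Ezh2 cKO group has 2 libraries from mice with the same floxed alleles and a Cre recombinase driven by Aldh1l1, an astrocyte gene. The deletion is directed at cells in which this Cre is made, and which cells of these libraries carry it was not measured. Both groups were 5 days old, and no treatment or stimulus is stated for either. The floxed mice came from The Jackson Laboratory and the Cre mice from GemPharmatech, and the study also kept C57BL/6J and ICR (CD1) mice, but the genetic background of these libraries and the number of animals in each were not found in the sources used here. EZH2 is the enzyme that places the repressive mark H3K27me3 on chromatin. The comparison asks which transcripts differ between the libraries of these groups.

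Immediate early genes are transcribed within minutes of a stimulus, without the need for new protein synthesis. Calcium entry and MAP kinase signalling reach their promoters through factors that are already present in the cell, chiefly CREB, which binds the cAMP response element (CRE), and SRF, which binds the CArG box. Most encode transcription factors that switch on slower genes, whereas Arc acts directly at synapses. In the brain they serve as markers of neurons that have recently been active, although glia also induce several of them. Tissue dissociation is likewise known to induce them.

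The sequences upstream of 4 members are shown because they include the member with the second-largest rise (Egr4), a member that rose less (Junb) and both members whose groups overlapped (Fos and Nr4a1). They are the last 150 bases before the RefSeq transcript start on GRCm38.p6, and a longer stretch of 250 bases was searched. Capitals mark the CRE half-site TGACG or its reverse complement, the TATA box TATAA and, in Nr4a1, the EGR site GCGGGGGCG on the other strand. The windows are chr6:85513590-85513739 on the minus strand for Egr4, chr8:84978749-84978898 on the minus strand for Junb, chr12:85473740-85473889 on the plus strand for Fos and chr15:101266696-101266845 on the plus strand for Nr4a1, the last lying upstream of a start inside the annotated gene.
Egr4: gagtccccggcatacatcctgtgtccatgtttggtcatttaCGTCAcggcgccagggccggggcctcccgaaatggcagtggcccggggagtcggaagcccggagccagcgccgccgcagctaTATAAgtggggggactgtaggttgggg
Junb: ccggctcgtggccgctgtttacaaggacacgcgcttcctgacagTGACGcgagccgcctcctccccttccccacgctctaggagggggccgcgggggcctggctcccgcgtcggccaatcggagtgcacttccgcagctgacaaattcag
Fos: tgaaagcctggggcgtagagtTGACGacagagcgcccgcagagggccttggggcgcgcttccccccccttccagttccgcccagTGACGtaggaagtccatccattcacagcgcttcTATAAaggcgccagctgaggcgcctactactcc
Nr4a1: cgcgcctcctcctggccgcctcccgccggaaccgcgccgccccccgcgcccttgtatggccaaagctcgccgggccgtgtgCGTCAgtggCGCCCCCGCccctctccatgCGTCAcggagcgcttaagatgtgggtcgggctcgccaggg

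RefSeq windows matched 7 of the 10 members, the exceptions being Arc, Egr1 and Egr3. All 7 held the CRE half-site TGACG on either strand within 250 bases before a start, against 19.8% of 27025 genes. The full CRE, TGACGTCA, was in 0 of the 7 and in 1.77% of genes. A TATA box, searched as TATAA on the transcribed strand, was in 4 of the 7 (Fos, Egr2, Egr4 and Npas4) and in 18.4% of genes. The CArG box was in 1 of the 7, Egr2, and in 1.62% of genes, while an EGR site (GCGGGGGCG or GCGTGGGCG, either strand) was in Fosb and Nr4a1 and in 3.47% of genes. The half-site stood upstream of Egr4, which rose, of Fosb, which was called lower, and of Fos and Nr4a1, which did not pass the test. As all 7 held it, it cannot separate members that rose from the others. A match in these windows is a description of the letters there and does not show that a factor binds. Sequence more than 250 bases before a start was not searched, so a missing match does not show that a gene lacks the element.

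Across the 10 genes, 6 were higher and 1 was lower in Ezh2 cKO when called by edgeR at an adjusted p under 0.05, and the same numbers, 6 and 1, had an unadjusted p under 0.05. Among all tested genes, 34.7% were higher and 33.6% were lower, so a call in either direction was common in these libraries. Both Ezh2 cKO libraries lay above both Ezh2 f/f libraries for 7 of the 10, against 42.8% of tested genes. The median log2 fold change of the 10 was 1.25, against 0.02 for all tested genes. Summed over the 10 genes, the level was 107.2 and 63.0 CPM (counts scaled to library size) in Ezh2 f/f against 224.8 and 224.1 CPM in Ezh2 cKO. With 2 libraries in each group an exact permutation test on a single gene cannot go below p = 0.333, so the p-values come from a model fitted across all genes. The labels do not state that the libraries are separate animals, and these p-values then measure only the spread between the libraries. In bulk RNA a higher level in each cell and more cells of the expressing type cannot be told apart.

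**Figure D1:**
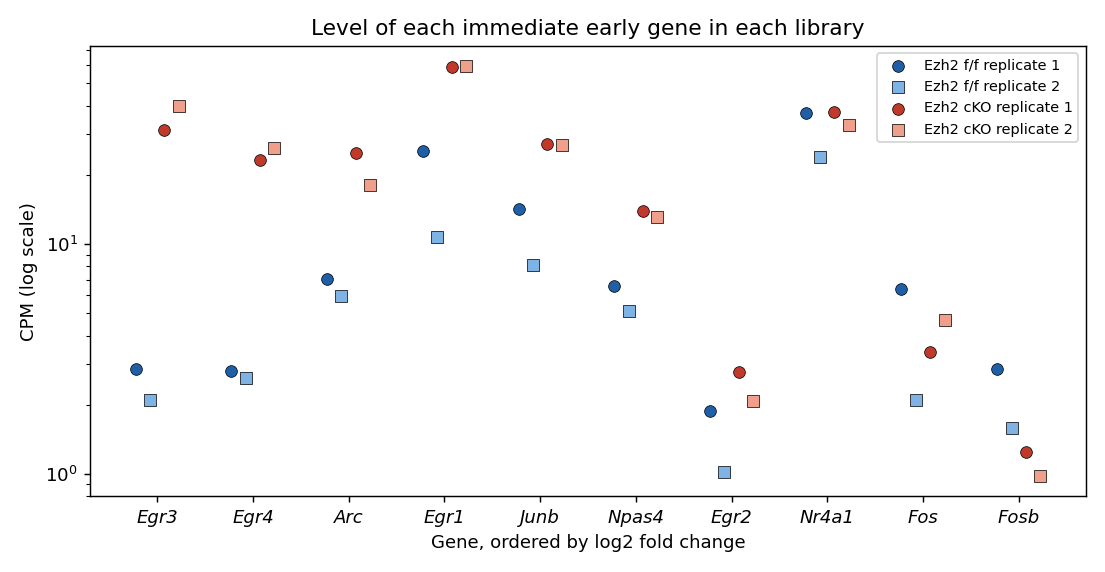
CPM on a log axis for the 10 immediate early genes in each of the 4 libraries (colour for the group, marker for the replicate), ordered by log2 fold change. Both Ezh2 cKO libraries lie above both Ezh2 f/f libraries for Junb, Egr1, Egr2, Egr3, Egr4, Arc and Npas4, below them for Fosb, and overlap them for Fos and Nr4a1.

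The EGR family, zinc finger factors that bind a shared GC-rich site, held the 2 largest rises. Egr3 (ENSMUSG00000033730, listed on chromosome 14 from 70314652 to 70320063, plus strand) had counts of 49 and 33 in Ezh2 f/f against 552 and 688 in Ezh2 cKO. These are 2.87 and 2.10 CPM against 31.3 and 39.7 CPM, with no overlap between the groups. Its log2 fold change was 3.83 (standard error, SE, 0.19, 95% interval 3.41 to 4.24, adjusted p = 1.25e-09 from edgeR), or 14.2-fold, and 99.1% of tested genes had a lower one. There were 229 tested genes with a smaller p.

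Egr4 (ENSMUSG00000071341, chromosome 6 from 85488103 to 85490571, minus strand) stood at 2.81 and 2.61 CPM in Ezh2 f/f, and at 23.3 and 26.1 CPM in Ezh2 cKO. The means were 2.71 ± 0.142 and 24.7 ± 1.96 CPM (SD, n = 2 libraries each), and the log2 fold change was 3.18 (SE 0.18, adjusted p = 2.71e-09 from edgeR). Its Ezh2 f/f libraries were the closest of any member's, 1.08-fold apart, and the difference between the groups was many times larger than that spread. Egr3 and Egr4 encode factors that neurons induce with activity.

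Egr1 (ENSMUSG00000038418, chromosome 18 from 34992876 to 34998037, plus strand), the most widely used marker of the family, had 25.3 and 10.7 CPM in Ezh2 f/f against 59.2 and 59.3 CPM in Ezh2 cKO. The Ezh2 cKO libraries were nearly equal, while the Ezh2 f/f libraries differed 2.37-fold. Egr1 rose by 1.71 on the log2 scale (SE 0.24, adjusted p = 2.21e-05 from edgeR). DESeq2 gave 1.70 with a larger SE of 0.59 (adjusted p = 0.00918). The edgeR value was 2.47 without Ezh2 f/f replicate 1 and became 1.21 when replicate 2 was left out instead. Egr2, which is also known for its role in myelinating glia, had counts of only 32 and 16 in Ezh2 f/f against 49 and 36 in Ezh2 cKO. Its groups did not overlap, yet it did not pass the test (log2 fold change 0.74, 95% interval -0.03 to 1.50, adjusted p = 0.0800), and without Ezh2 f/f replicate 1 it did (1.25, adjusted p = 0.0107).

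Of the 3 AP-1 genes, whose proteins pair as FOS and JUN dimers, Junb was called higher, Fosb lower and Fos neither, and differences between these genes were not tested. Junb (ENSMUSG00000052837, chromosome 8 from 85701113 to 85705347, minus strand) had 14.2 and 8.08 CPM in Ezh2 f/f against 27.2 and 27.0 CPM in Ezh2 cKO. It rose by 1.28 on the log2 scale (SE 0.20, adjusted p = 5.02e-05), with both Ezh2 cKO libraries above both controls. Its span overlaps Prdx2, an abundant gene on the opposite strand with 6085 to 7022 counts per library. How strand was used in counting is not given in the sources used here, so the value of Junb is uncertain.

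Fos (ENSMUSG00000021250, chromosome 12 from 85520664 to 85524047, plus strand), the classical marker of recent activity, had counts of 109 and 33 in Ezh2 f/f against 60 and 81 in Ezh2 cKO. Expressed as CPM these were 6.38 and 2.10 against 3.40 and 4.68, so both Ezh2 cKO libraries lay between the controls. The group means were 4.24 ± 3.03 and 4.04 ± 0.899 CPM (SD, n = 2 libraries each), and the log2 fold change was -0.08, with a 95% interval from -0.89 to 0.73 (adjusted p = 0.856). The interval spans both a fall and a rise, so no direction was detectable here. Without Ezh2 f/f replicate 1 the log2 fold change of Fos was 0.94 (adjusted p = 0.00988 from edgeR), and without Ezh2 f/f replicate 2 it was -0.68 (adjusted p = 0.0163). The control library that was kept thus set the direction.

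Fosb (ENSMUSG00000003545, chromosome 7 from 19036621 to 19043976, minus strand), which also gives the long-lived delta isoform in neurons, was the 1 member called lower. It had counts of 49 and 25 in Ezh2 f/f against 22 and 17 in Ezh2 cKO, or 2.87 and 1.59 against 1.25 and 0.981 CPM, the groups lying close together without overlap. Its log2 fold change was -1.003 (SE 0.38, adjusted p = 0.0297 in edgeR). The call did not hold in DESeq2 (adjusted p = 0.173), nor without Ezh2 f/f replicate 1 (0.380), Ezh2 cKO replicate 1 (0.0956) or Ezh2 cKO replicate 2 (0.200).

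Npas4 and Arc are the members most closely tied to neurons. Npas4 (ENSMUSG00000045903, chromosome 19 from 5034383 to 5040344, minus strand) encodes a bHLH-PAS factor that responds to calcium entry. It had 6.56 and 5.09 CPM in Ezh2 f/f against 13.9 and 13.1 CPM in Ezh2 cKO, without overlap. Its log2 fold change was 1.21 (SE 0.18, adjusted p = 4.09e-05 from edgeR). Arc (ENSMUSG00000022602, chromosome 15 from 74540932 to 74544419, minus strand), whose protein removes AMPA receptors from synapses, had 7.03 and 5.92 CPM in Ezh2 f/f against 24.8 and 18.1 CPM in Ezh2 cKO. It rose 3.31-fold, or by 1.73 on the log2 scale (SE 0.19, adjusted p = 1.61e-06).

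Nr4a1 (ENSMUSG00000023034, chromosome 15 from 101152150 to 101172676, plus strand) encodes an orphan nuclear receptor. It had 37.4 and 23.8 CPM in Ezh2 f/f against 37.6 and 33.0 CPM in Ezh2 cKO, so the groups overlapped. The log2 fold change was 0.20, with a 95% interval from -0.15 to 0.56 (adjusted p = 0.283), and the test was passed without Ezh2 f/f replicate 1 (0.57, adjusted p = 2.31e-04 from edgeR). Without Ezh2 f/f replicate 2 the sign turned and the test was not passed (-0.10, adjusted p = 0.533).

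**Figure D2:**
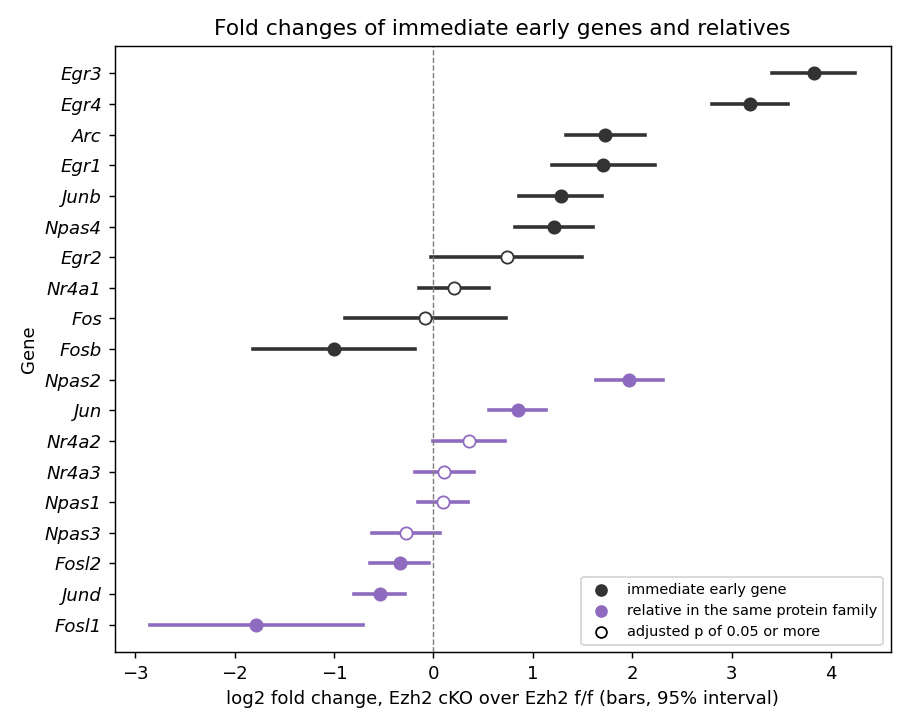
Log2 fold change (Ezh2 cKO over Ezh2 f/f) of the 10 genes (black) and of 9 tested relatives in the same protein families (purple), with 95% intervals from edgeR and open points where the adjusted p is 0.05 or more. Egr3 (3.83) and Egr4 (3.18) stand furthest from 0, among the 10 the intervals of Fos, Nr4a1 and Egr2 include 0, and that of Fosb lies below it.

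Between the control libraries 9 of the 10 members differed more than the median tested gene did, and 1, Egr4, differed less. All 10 had a higher CPM in Ezh2 f/f replicate 1 than in replicate 2, against 49.6% of tested genes with counts in both. The ratio of replicate 1 to replicate 2 was 3.04-fold for Fos, 2.37-fold for Egr1, 1.84-fold for Egr2, 1.80-fold for Fosb and 1.75-fold for Junb. It was smaller for Arc (1.19-fold) and Egr4 (1.08-fold), which both rose in Ezh2 cKO. On the log2 scale the median of the 10 was 0.73, against a median absolute difference of 0.16 over all tested genes, and the share of tested genes that differed less was 98.4% for Fos, 64.5% for Arc and 35.6% for Egr4. The Ezh2 cKO libraries were closer for 8 of the 10 and further apart for 2, Arc and Egr4. How many of all tested genes were closer was not counted. Their median absolute log2 ratio was also smaller in Ezh2 cKO, at 0.14 against 0.16. In Ezh2 cKO, 6 of the 10 were higher in replicate 1 (53.1% of tested genes), the log2 ratios ran from -0.46 for Fos to 0.46 for Arc, and the median absolute ratio was 0.27, against 0.14 over all tested genes.

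**Figure D3:**
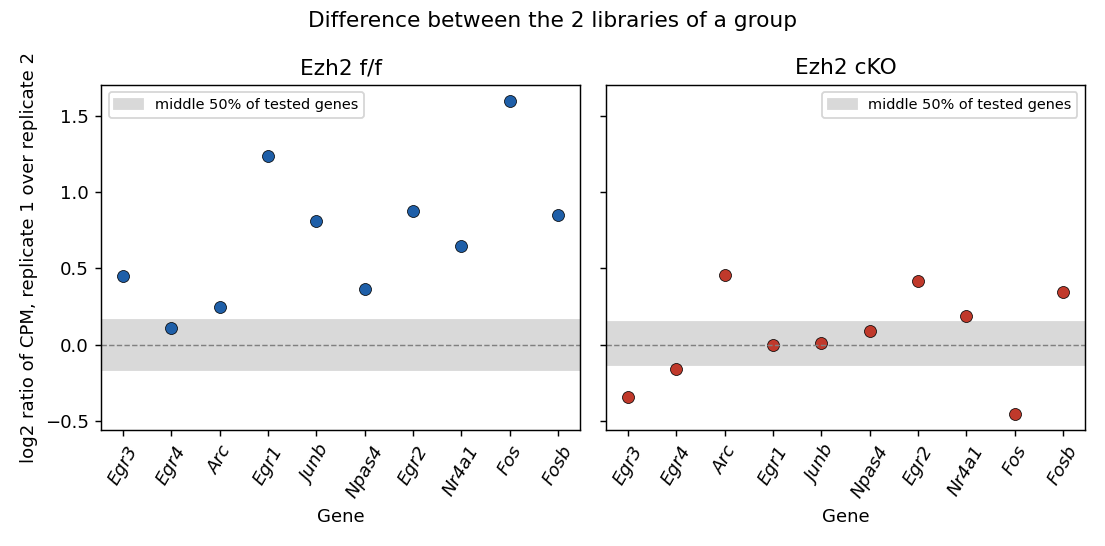
Log2 ratio of replicate 1 to replicate 2 within each group for the 10 genes, with the middle 50% of tested genes shaded (-0.16 to 0.16 in Ezh2 f/f and -0.13 to 0.15 in Ezh2 cKO). Every Ezh2 f/f point lies above 0, from 0.11 (Egr4) to 1.60 (Fos), while the Ezh2 cKO points fall on both sides of 0.

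Taken against each control library separately, the mean Ezh2 cKO level of Egr3 was 12.4 times that of Ezh2 f/f replicate 1 and 16.9 times that of replicate 2. The corresponding values were 8.79 and 9.47 for Egr4, 3.06 and 3.63 for Arc, and 2.06 and 2.66 for Npas4. For Egr1 they were 2.34 and 5.54, and for Junb 1.91 and 3.36. The rises of these 6 genes thus held against either control library, and their size depended on the library most for Egr1. For Fos the values were 0.633 and 1.92, on opposite sides of equality.

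Levels of different genes were compared on the FPKM scale, which corrects for gene length. In Ezh2 f/f, Nr4a1 was the highest (mean 8.46 FPKM), followed by Junb (4.70), Egr1 (3.90), Arc (2.06), Fos (1.75), Npas4 (1.37), Egr4 (1.22), Egr3 (0.548), Egr2 (0.413) and Fosb (0.347). Of the neighbours in this order, only Nr4a1 and Junb, Egr1 and Arc, and Egr4 and Egr3 did not overlap between libraries. In Ezh2 cKO the order began with Egr1 (13.6), Junb (12.1) and Egr4 (11.8), and Nr4a1 (10.3), Egr3 (8.30), Arc (7.21), Npas4 (3.36), Fos (1.77), Egr2 (0.734) and Fosb (0.183) followed. There, the libraries overlapped only between Junb and Egr4 and between Egr3 and Arc. Egr3 and Egr4 together made up 6.12% and 8.91% of the summed FPKM of the 10 genes in Ezh2 f/f against 26.5% and 31.4% in Ezh2 cKO. The share of Nr4a1 was 33.3% and 35.7% in Ezh2 f/f against 15.8% and 14.0% in Ezh2 cKO.

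**Figure D4:**
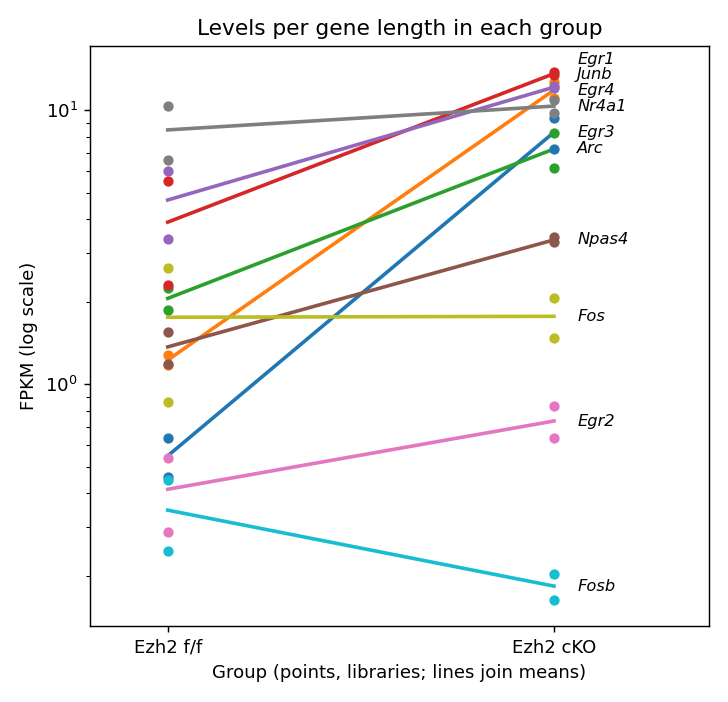
FPKM on a log axis for the 10 genes in the libraries of each group (points), with a line joining the group means of each gene. Nr4a1 leads in Ezh2 f/f (mean 8.46) and Egr1 in Ezh2 cKO (mean 13.6), while Fosb is last in both groups.

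Other members of the same protein families moved in both directions. Of 10 such relatives 9 were tested (Wt1, with 0 to 3 counts, was not). Of these, 2 were higher (22.2%) and 3 lower (33.3%), against 34.7% and 33.6% of all tested genes. The median log2 fold change of the relatives was 0.10. Npas2, a relative of Npas4 with a circadian role, rose by 1.97 (adjusted p = 7.44e-08 from edgeR), and Jun rose by 0.85 (adjusted p = 7.03e-05). The AP-1 genes Jund (-0.54), Fosl2 (-0.34) and Fosl1 (-1.78) fell, the last from 17 and 19 counts to 6 and 5. The number of relatives called lower was 1 with DESeq2 and without either of the Ezh2 cKO libraries. Nr4a2 (log2 fold change 0.36, adjusted p = 0.0704) and Nr4a3 (0.11, adjusted p = 0.489), the relatives of Nr4a1, did not pass the test.

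A further 35 genes that respond rapidly to many stimuli, in neurons and other cells, were all tested. Of these, 8 were higher (22.9%, against 34.7% of all tested genes) and 18 lower (51.4%, against 33.6%). Their median log2 fold change was -0.46. The risers were led by Klf10 (1.92), Gadd45b (1.31) and Atf3 (1.24), of which Atf3 had only 10 and 5 counts in Ezh2 f/f against 24 and 14 in Ezh2 cKO. Without Ezh2 cKO replicate 2, 4 of the 35 were higher. The kinase genes Pim1 (-2.09) and Sik1 (-1.997) and the cytokine feedback gene Socs3 (-1.82) fell most. Sik1, which restrains CREB coactivators, went from 1292 and 1068 counts to 333 and 296. In the control libraries 24 of the 35 were higher in replicate 1 (68.6%), with a median log2 ratio of 0.15, against 0.73 for the 10 members.

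Of 25 genes listed as induced more slowly by activity in neurons, 24 were tested (Ptgs2 was not). Of these, 15 were higher (62.5%, against 34.7% of all tested genes) and 1 lower (4.17%, against 33.6%). Their median log2 fold change was 0.51. Rasgrp1, an activator of RAS, rose by 3.43 (adjusted p = 5.02e-11 from edgeR), from 170 and 162 counts to 1774 and 2045. Nrgn, which encodes a postsynaptic calmodulin-binding protein, rose by 3.11, and Pcsk1, a prohormone convertase gene, by 2.32. Plk2 was the 1 gene that fell (-0.34, adjusted p = 0.0162), and the number lower was 0 without Ezh2 f/f replicate 1 or Ezh2 cKO replicate 1 and 3 without Ezh2 f/f replicate 2.

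Among 36 genes of the signalling that leads to immediate early transcription, 35 were in the table and tested. Of these, 15 were higher (42.9%) and 10 lower (28.6%), against 34.7% and 33.6% of all tested genes. The median log2 fold change of the 35 was 0.10. Camk2a, a calcium-dependent kinase gene of excitatory neurons, rose by 3.04, the MAP kinase kinase gene Map2k1 by 2.37, and Camkk2 rose 4.59-fold. The CREB coactivator genes Crtc3 (-1.81), Crtc2 (-1.63) and Crebbp (-1.24) fell. The genes for the 2 main factors themselves, chosen after their values were seen, stood at 0.14 for Creb1 and 0.03 for Srf. Nab2, a corepressor that EGR factors induce, also chosen after its values were seen, had a log2 fold change of 1.27 (adjusted p = 1.82e-05).

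Of 14 heat shock genes, 6 were higher (42.9%, against 34.7% of all tested genes) and 3 lower (21.4%, against 33.6%). Their median log2 fold change was 0.32. Hsph1 (1.43), Hspa1a (1.24) and Hsp90aa1 (0.77) led the first group, Hspa1a being uncertain because of its near-identical copy Hspa1b. Dnajb1 (-0.92), Hsp90ab1 (-0.77) and Hsf1 (-0.39) made up the second. Heat shock genes are known to respond to stress, and the part of stress in their values was not tested.

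**Figure D5:**
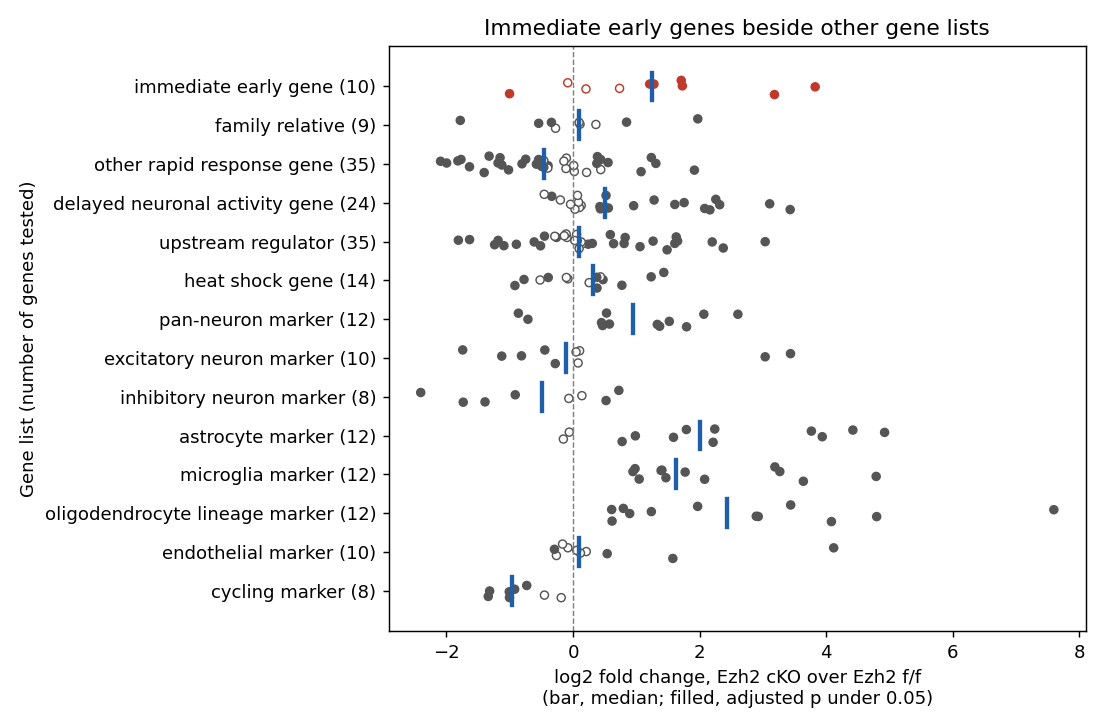
Log2 fold changes of the tested genes in each list (points, filled where the adjusted p is under 0.05), with a bar at the list's median. The 10 immediate early genes have a median of 1.25, the slower activity genes 0.51 and the other rapid response genes -0.46.

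Markers of several cell types moved with the group, in libraries where 34.7% of all tested genes were higher and 33.6% lower. Transcripts of neurons were abundant in all libraries. The summed level of 12 pan-neuron markers was 7368 and 7876 CPM in Ezh2 f/f against 8696 and 8698 CPM in Ezh2 cKO, with 10 higher and 2 lower and a median log2 fold change of 0.95. The neuronal tubulin gene Tubb3 (-0.71) was among those that fell, while Syt1, a synaptic vesicle gene, rose by 2.61. Of 10 excitatory neuron markers 2 were higher and 5 lower, among them Neurod2 (-1.74). Their sum went from 1484 and 1313 to 4102 and 3842 CPM. The 2 higher ones weigh most in the Ezh2 cKO sum. Slc17a7 (3.44) went from 134.3 and 115.6 to 1399 and 1308 CPM, and Camk2a from 252.6 and 246.7 to 2137 and 1960 CPM. Of 8 inhibitory neuron markers 2 were higher and 4 lower (691.7 and 624.0 against 586.0 and 584.1 CPM). The medians of these lists were -0.12 and -0.49.

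Astrocyte markers summed to 507.2 and 520.9 CPM in Ezh2 f/f against 2906 and 2659 CPM in Ezh2 cKO. Of these 12 genes 10 were higher and 0 lower. Such sums weigh abundant transcripts most and do not compare cell types. Tubb3 alone was 3563 of the 7368 CPM of the pan-neuron markers in Ezh2 f/f replicate 1. Slc1a3, which encodes GLAST, rose by 1.59, Gfap by 3.77 and S100b by 4.92, whereas Aldh1l1 was at -0.15 (adjusted p = 0.175). The 12 microglia markers (114.7 and 117.4 against 361.4 and 303.4 CPM) and the 12 oligodendrocyte lineage markers (250.4 and 268.0 against 1440 and 1248 CPM) were all higher. Of 10 endothelial markers 3 were higher and 1 lower (307.1 and 296.0 against 340.1 and 291.6 CPM), and of 8 cycling markers 0 were higher and 6 lower (180.1 and 167.4 against 116.3 and 108.2 CPM). The number of endothelial markers lower was 0 without Ezh2 f/f replicate 1 or Ezh2 cKO replicate 2, 0 with DESeq2, and 2 when Ezh2 f/f replicate 2 was left out. The median log2 fold changes were 2.00 for the astrocyte, 1.62 for the microglia, 2.43 for the oligodendrocyte lineage, 0.09 for the endothelial and -0.96 for the cycling markers. In these lists 1 marker, Mobp, was at 0 in a library, Ezh2 f/f replicate 1. Their part in the values of the immediate early genes was not tested, nor was the part of the isolation procedure.

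Ezh2, the targeted gene, had counts of 434 and 327 in Ezh2 f/f against 211 and 164 in Ezh2 cKO, which is -1.11 on the log2 scale. Total counts were 17522152 and 16273308 in Ezh2 f/f against 17330230 and 16678309 in Ezh2 cKO. At this depth the 3 counts taken as the floor of detection equal 0.170 to 0.191 CPM. All 10 immediate early genes were above that floor in every library, the lowest being Fosb with 17 counts in Ezh2 cKO replicate 2.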

How the data were processed

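RNA-seq was done on 2 Ezh2 f/f and 2 Ezh2 cKO libraries of P5 cortical cells isolated as astrocytes. The authors deposited raw read counts per gene for each library and, in a second table, FPKM, which are the counts scaled by the authors to gene length and library size. The submitters' processing notes list Bowtie2 2.2.3, TopHat2 2.0.12, HTSeq 0.6.0 and mm9. The strand setting is not given in the sources used here. Gene positions are printed as deposited. Of the 10 members, 0 have the same position in GENCODE M21 (GRCm38) and 10 have the same span length, so the build of the positions was not settled and nothing was converted. The upstream sequences are from RefSeq on GRCm38.p6. The authors' own comparison columns (a mean, ratio, log2 ratio and p-values) were not used, and 0 columns of samples were left out.

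Counts were filtered with filterByExpr, scaled by TMM (factors 0.976, 0.967, 1.019 and 1.040) and compared with the quasi-likelihood test of edgeR 4.0.16 in R 4.3.3, with the group as the only term and a common biological coefficient of variation of 0.0953. Benjamini-Hochberg adjustment was over all 16793 genes tested, with calls at 0.05. CPM use the TMM-adjusted library size, the SD is over 2 libraries, and a positive log2 fold change means higher in Ezh2 cKO. The SE is the absolute log2 fold change divided by the square root of the edgeR F statistic, and the intervals are built from it. Intervals and the floor of 3 counts cover no error beyond the model and counting. Alternatives were DESeq2 1.42.0, its size factors in edgeR, no filter, a mean of at least 50 counts, limma 3.58.1 on log2(FPKM + 1) and log2(FPKM + 0.1) both on genes that reached an FPKM of 1 in 2 libraries, a block on replicate number, and each library left out. Each test was tried on simulated data with 200 changed genes. The simulation gave every gene the same dispersion and changed far fewer genes than were called here. It therefore does not show how the tests perform on these libraries. Python 3.11.15, numpy 2.4.6, pandas 2.3.3 and matplotlib 3.10.9 were also used.

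The members and lists were chosen with earlier results of these data known, and lists are described without a test. Some genes are counted in several lists, so the lists are not independent. Camk2a stands in the signalling and excitatory neuron lists. Crem is in the slower activity and signalling lists, and Sst in the slower activity and inhibitory neuron lists. Crem and Sst are named only because lists share them. The genes named are all members, Ezh2, up to 3 genes with the highest and 3 with the lowest log2 fold change past the test in each other list, and defining markers. Others are stated as chosen after their values were seen, and the relatives Nr4a2, Nr4a3 and Wt1, the untested Ptgs2, and Mobp are named for the same reason.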

Additional observations from a re-analysis of the deposited data

How the results depend on the processing

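Junb, Egr1, Egr3, Egr4, Arc and Npas4 kept their direction and stayed past the threshold under every alternative run, with Egr3 at its lowest (2.58) with limma on log2(FPKM + 1). The number of members higher was 6 except without Ezh2 f/f replicate 1, where it was 9. The number lower, 1 (Fosb), was 0 with DESeq2, with a mean of at least 50 counts and with limma on log2(FPKM + 1), the last 2 of which leave Fosb and Egr2 out, and ranged from 0 to 2 when each library was left out. Fos changed sign to 0.079 with limma on log2(FPKM + 1), 0.18 with log2(FPKM + 0.1) and 0.018 with the replicate block, and ranged from -0.68 to 0.94 with each library left out. Nr4a1 ranged from -0.10 to 0.57. The members' median was 0.97 to 1.58 over the alternatives. Counts over all tested genes stayed within 1.5 times. The replicate block gave 6 members higher and 1 lower, and changed no member's call. Across tested genes, the replicate 1 deviations from the group mean correlated with r = 0.119 between the 2 groups. This value cannot show whether libraries with the same number were paired. Leaving a library out gives an arm of 1, assumed to vary like the other group. Depth limits Fosb and Egr2, which had under 50 counts in every library.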
